A study of Lachancea kluyveri with 31 samples.

Results

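The left part of chromosome C of the yeast *Lachancea kluyveri*, called C-left here, was taken as all genes whose ID starts with SAKL0C and carries a number below 10000, apart from 1 gene that the rule leaves out. It held 414 of the 5316 genes on the arrays, with numbers between 110 and 9988. These genes were measured by 827 of 10620 probes, 2 probes for each of 413 genes and 1 probe for *OYE2*. An ortholog name from *Saccharomyces cerevisiae* was available for 276 of the genes, and the other 138 keep their systematic ID. The other chromosomes and the rest of chromosome C served for comparison: the 106 genes numbered 11528 to 14080 (C-right), the 63 genes between these and C-left (C-middle), and the 4285 genes of chromosomes B and D to H. Chromosome A (447 genes) was kept apart, because its median signal in *aft1*Δ cells stood far above that of the other chromosomes.

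The left arm of chromosome C is known as GC-rich in this species. It replicates later than the rest of the genome and carries the mating-type locus, and C-left is the part of this arm that the gene numbers set. Gene numbers run along the chromosome, so that neighboring numbers are neighboring loci. Aft1 in *S. cerevisiae* activates the genes of iron uptake when iron is scarce. Sef1 is a zinc cluster transcription factor that turns on iron uptake genes in *Candida albicans*, and the study asked what both factors do in *L. kluyveri*.

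RNA was measured on 31 one-color arrays in 8 groups. The *sef1*Δ strain SkSef1KA1 carries *sef1*Δ::KanMX6, the *aft1*Δ strain SkAft1KA22 carries *aft1*Δ::KanMX6, and the double mutant SkSef1KAft1HA1 carries *sef1*Δ::KanMX6 and *aft1*Δ::HphMX4. They were compared with the wild-type (WT) strain JYL1897, a MATa *ura3* strain, and each genotype is represented by 1 clone. Precultures grown in YPD at 28°C were brought to 0.5 OD600/ml, and cells were kept for 5.5 h at 30°C in low-iron medium (YPD with the iron chelator BPS, labeled 200 mM) or in high-iron medium (YPD with ferrous iron, labeled 400 mM). The study's text gives the same doses in µM. There were 3 biological repeats of *sef1*Δ at high iron and 4 of each other group.

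All values below are log2 signals from which the array's own 75th percentile was subtracted, averaged over the probes of a gene. A gene was called when its adjusted p in limma was at most 0.05 and its change was at least 1.5-fold. Before scaling, the 75th percentile lay between 10424 and 23244 units, and 97.8% to 99.7% of probes were well above background. Of the C-left genes, 407 were well above background on all 31 arrays. *SEF1* read −8.04 to −6.81 on the arrays of the strains that lack it, against −2.65 to −2.19 on the others, and *AFT1* read −7.85 to −5.56 on the arrays of the strains that lack it, against −2.95 to −0.53 on the others. The mark of being well above background does not by itself show a transcript, since the deleted genes carried it too. *AFT1* had it on every array of the strains that lack it. *SEF1* had it on 3 of 4 *sef1*Δ arrays at low iron and on all other arrays without the gene. C-left genes with signals in the range of the deleted genes, such as SAKL0C00110g and SAKL0C00198g, may thus lie near the floor. Each strain lay on a slide of its own, and the session in which the WT slide was scanned differed from that of the mutants. A mutant and its slide therefore cannot be told apart in a comparison with WT, whereas low and high iron shared a slide. On every slide, however, the iron levels were split by row, and row 1 was always that of high iron. A comparison of iron levels thus cannot separate iron from the position on the slide, and an effect of the row was not tested. Replicate 4 of *sef1*Δ*aft1*Δ at low iron stood apart. Its median absolute difference from the other arrays of its group was 0.21 over C-left genes, against 0.05 to 0.14 for the other 30 arrays.

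As a block, C-left had lower signal in the mutants than in WT relative to the other chromosomes, and iron moved it little. The C-left median was set against the median of chromosomes B and D to H on each array. Different probes differ in brightness, so the size of this offset on 1 array has no meaning of its own, and only its change between arrays, which carry the same probes, is read here. The offset was 0.55 ± 0.04 at low iron (SD, n = 4) and 0.47 ± 0.08 at high iron (SD, n = 3) in *sef1*Δ cells. It was 0.40 ± 0.02 at low iron and 0.48 ± 0.03 at high iron in *aft1*Δ cells (SD, n = 4 each), and 0.46 ± 0.08 at low iron and 0.40 ± 0.02 at high iron in *sef1*Δ*aft1*Δ cells (SD, n = 4 each). In WT cells it was 0.79 ± 0.07 at low iron and 0.86 ± 0.07 at high iron (SD, n = 4 each). The 23 mutant arrays lay between 0.38 and 0.59 and the 8 WT arrays between 0.70 and 0.91, without overlap. The range of 0.38 to 0.59 was shared by the arrays of all 3 mutants, and neither iron level separated from the other across strains.

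C-right did not follow. Its offset from the same chromosomes lay between −0.35 and −0.11 on all arrays, and the WT arrays lay inside the range of the mutant arrays. C-middle, which borders C-left, was 0.71 ± 0.09, 0.49 ± 0.11, and 0.72 ± 0.10 in *sef1*Δ, *aft1*Δ, and the double mutant at low iron, against 0.94 ± 0.05 in WT (SD, n = 4 each). C-left thus ranged from 0.38 to 0.91 over the 31 arrays, against widest ranges among the single chromosomes B and D to H of −0.14 to 0.01 for D and −0.13 to 0.01 for B. Set against C-right in place of the other chromosomes, C-left read 0.54 to 0.87 in *sef1*Δ, 0.63 to 0.83 in *aft1*Δ, 0.50 to 0.88 in *sef1*Δ*aft1*Δ, and 0.86 to 1.12 in WT, so that the highest mutant arrays just reached the lowest WT array. These offsets were compared as a description, with no test, and the part of the slide and the scan in them was not tested.

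**Figure D1:**
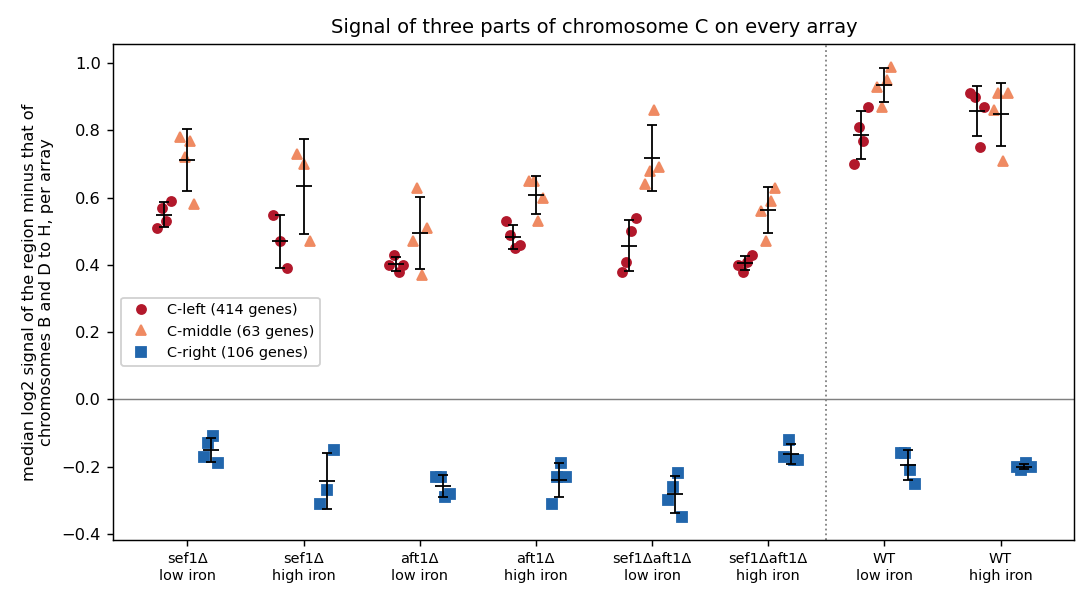
Median log2 signal of C-left, C-middle, and C-right minus the median of chromosomes B and D to H (y axis, log2 units) for each array of the 8 groups (x axis). Points are arrays and bars are the group mean ± SD. The C-left points of the mutants lie between 0.38 and 0.59 and those of WT between 0.70 and 0.91, whereas C-right stays between −0.35 and −0.11 throughout.

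Gene by gene, the same shift appeared in the fold changes against WT. At low iron the median log2 fold change of the C-left genes was −0.113 in *sef1*Δ cells, −0.258 in *aft1*Δ cells, and −0.083 in the double mutant, against 0.124, 0.080, and 0.150 over chromosomes B and D to H in the same order of strains. At high iron it was −0.205, −0.245, and −0.175, against 0.150, 0.068, and 0.208. The medians of C-right at high iron were 0.116, 0.072, and 0.122, on the side of the other chromosomes. Of the C-left genes, 58.0% to 70.3% lay below 0 in the 6 comparisons with WT, against 32.7% to 44.9% of the genes of B and D to H. The 3 mutants were compared with the same WT arrays, so their shifts are not separate measurements of WT.

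The sign of this difference did not depend on the scaling. The difference between both medians was −0.237, −0.338, and −0.233 at low iron and −0.355, −0.313, and −0.383 at high iron for *sef1*Δ, *aft1*Δ, and the double mutant, and it stayed below 0 under each alternative tried. The split between higher and lower calls did depend on it, as the median over all genes lay above 0 in each comparison with WT (0.105, 0.105, and 0.129 at low iron, 0.123, 0.096, and 0.178 at high iron) and came to between −0.101 and −0.003 when arrays were scaled to their median.

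**Figure D2:**
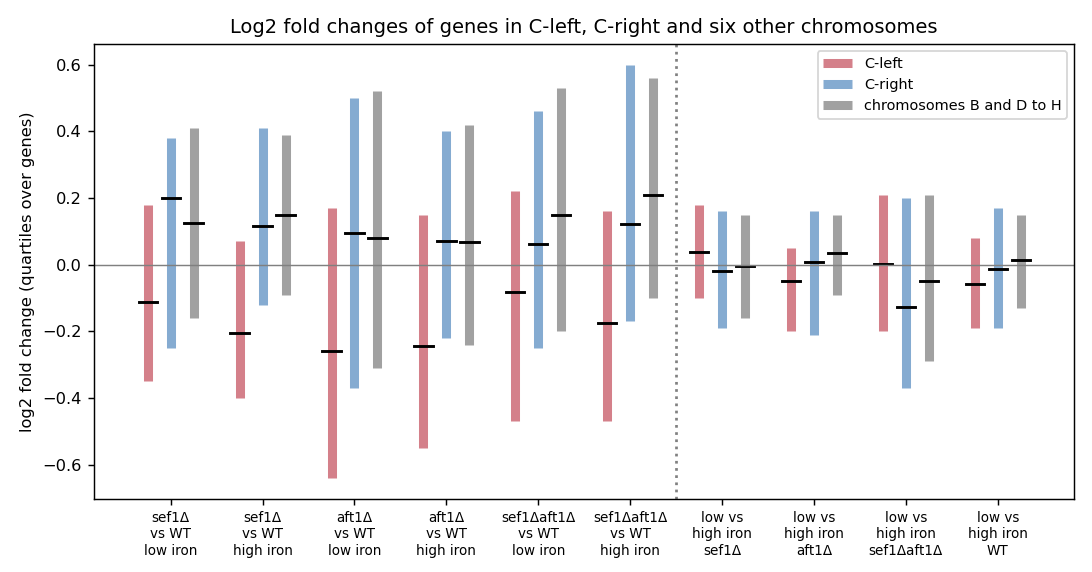
Log2 fold changes (y axis) of the genes of C-left (414 genes), C-right (106 genes), and chromosomes B and D to H (4285 genes) in 10 comparisons (x axis). Bars span the lower to the upper quartile over genes and black lines are medians. In the 6 comparisons of a mutant with WT the C-left median lies between −0.258 and −0.083 and the median of B and D to H between 0.068 and 0.208, while the medians of the iron comparisons lie between −0.126 and 0.037.

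Calls of single genes leaned the same way. In *sef1*Δ cells at low iron 26 C-left genes were called higher and 43 lower than in WT, or 6.28% and 10.4%, against a background over all genes of 13.8% called higher and 7.22% called lower (21.1% in all). In *aft1*Δ cells 47 were called higher and 116 lower, or 11.4% and 28.0%, against a background of 25.6% and 13.7% (39.3% in all). This background includes chromosome A, where 74.5% of genes were called higher. Over chromosomes B and D to H the *aft1*Δ shares were 22.2% and 13.4%. In *sef1*Δ*aft1*Δ cells 49 were called higher and 71 lower, or 11.8% and 17.1%, against a background of 21.4% and 8.77% (30.1% in all). The share of lower calls was above the background and that of higher calls below it in all 3 mutants.

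High iron gave the same picture. In *sef1*Δ cells 12 C-left genes were called higher and 51 lower (2.90% and 12.3%, background 11.1% and 5.68%, 16.8% in all). In *aft1*Δ cells it was 35 and 91 genes (8.45% and 22%, background 21.5% and 8.41%, 29.9% in all), and in *sef1*Δ*aft1*Δ cells 30 and 70 genes (7.25% and 16.9%, background 22.5% and 5.64%, 28.2% in all). Over chromosomes B and D to H, which leave out chromosome A, the *aft1*Δ shares were 17.2% and 7.86%. Scaling each array to its median lowered the higher calls and raised the lower ones at both iron levels, to 15 and 67, 35 and 169, and 38 and 112 at low iron and to 7 and 83, 27 and 157, and 16 and 124 at high iron. Quantile normalization gave 34 higher and 95 lower calls for *sef1*Δ*aft1*Δ at low iron and 13 and 98 at high iron. Leaving chromosome A out of the scaling gave 46 higher and 63 lower calls for *aft1*Δ at high iron. In none of these did the higher calls outnumber the lower ones.

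Dim and bright genes both showed the shift. C-left genes with a mean signal below −2 (83 genes), between −2 and 0 (202 genes), and above 0 (129 genes) had medians of −0.137, −0.227, and −0.482 in *aft1*Δ cells at low iron, against 0.215, 0.079, and −0.094 for genes of B and D to H in the same ranges. For *sef1*Δ at high iron the medians were −0.088, −0.182, and −0.268, against 0.241, 0.165, and 0.018. In each of the 3 ranges and all 6 comparisons with WT the C-left median lay below that of the other chromosomes. Both probes of a gene moved alike, with a correlation across the 413 genes of 0.67 to 0.86 in these comparisons (across genes, which are not replicates) and the same sign in 312 to 352 of them.

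Along C-left, every window lay below the other chromosomes, some by little. The smallest differences were −0.05 in *aft1*Δ at high iron and −0.03 in *sef1*Δ*aft1*Δ at low iron. The C-right windows between 12000 and 13000 and between 13000 and 14000 had 0.04 and 0.08 in *aft1*Δ at high iron. In *sef1*Δ*aft1*Δ at low iron they had 0.18 and 0.04. In windows of 1000 of the gene number, the C-left median fold change at high iron minus that of chromosomes B and D to H was between −0.45 and −0.21 in *sef1*Δ cells, −0.45 and −0.05 in *aft1*Δ, and −0.57 and −0.18 in *sef1*Δ*aft1*Δ cells. Beyond the bound it went on, with −0.26, −0.13, and −0.17 between 10000 and 11000 and −0.06, −0.17, and −0.23 between 11000 and 12000 in the same order of strains. The windows between 12000 and 13000 and between 13000 and 14000 lay within 0.08 of 0, and the 3 genes numbered above 14000 had −1.88, −1.04, and −1.52. At high iron the C-left difference was smallest in all 3 mutants at the chromosome end, below 1000. At low iron the 10 windows ranged between −0.38 and −0.12, −0.50 and −0.13, and −0.40 and −0.03 for the 3 mutants, and the end window (−0.24, −0.14, and −0.13) was not the smallest in any of them. The 4 stretches of 2500 in gene number held 104, 104, 99, and 107 genes, and their medians in *aft1*Δ cells at low iron were −0.193, −0.268, −0.408, and −0.224.

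The bound of the region was not a step in single genes. The C-left genes nearest to it were *APD1* and *MPD2*, with low-iron values of −0.22 and −0.28 for *aft1*Δ against WT, and the nearest genes outside were SAKL0C10010g and *SPP381*, with −1.06 and −0.16.

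**Figure D3:**
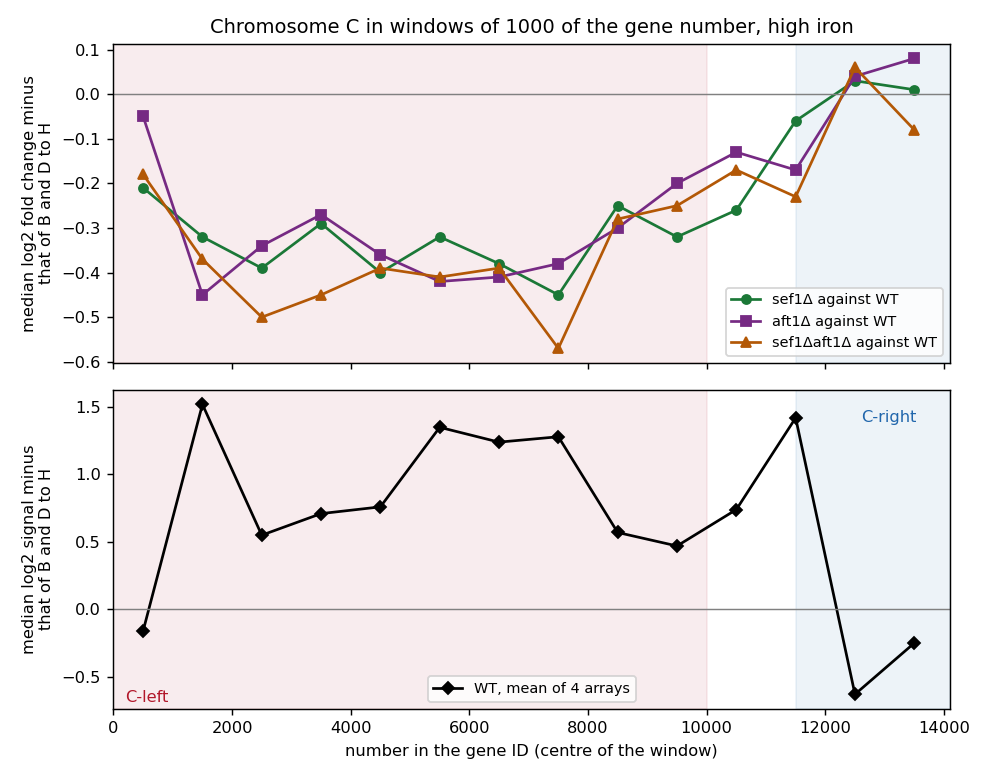
Windows of 1000 of the gene number along chromosome C (x axis, centre of the window) at high iron. The upper panel gives the median log2 fold change of each mutant against WT and the lower panel the median log2 signal of WT (mean of 4 arrays), both minus the value of chromosomes B and D to H. All 10 C-left windows lie below 0 in the upper panel (−0.57 to −0.05), and those between 12000 and 14000 lie within 0.08 of 0. Windows under 20 genes are not drawn, and the lower panel mixes probes of different brightness.

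Few C-left genes differed between low and high iron in WT and in the single mutants. At low iron 8 genes rose and 6 fell in *sef1*Δ cells, against a background over all genes of 3.29% higher and 2.33% lower (5.63% in all), and in *aft1*Δ cells 3 rose and 8 fell (background 1.47% and 1.94%, 3.41% in all). The double mutant had 32 genes that rose and 21 that fell (background 7.49% and 7.38%, 14.9% in all), a share of 7.73% and 5.07% of C-left genes. In WT 1 gene rose and 7 fell (background 2.99% and 1.94%, 4.93% in all). Only the higher calls in *sef1*Δ*aft1*Δ were above the background share, and by little. The median over C-left was 0.037 in *sef1*Δ, −0.048 in *aft1*Δ, 0.002 in *sef1*Δ*aft1*Δ, and −0.057 in WT, and it differed from that of B and D to H by −0.084 to 0.051. The 53 calls in the double mutant were again 53 without its replicate 4 at low iron, and 43 of the genes were shared.

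A set of 3 C-left genes was called lower at low iron in all 4 strains. No share over all genes stands beside this count, so it is not read as a trait of C-left. All 3 are tied to mitochondria or heme in *S. cerevisiae*, and the difference between high and low iron can be followed array by array. *CCP1* encodes the heme enzyme cytochrome c peroxidase, which removes hydrogen peroxide in the space between the mitochondrial membranes. It read −0.30, −0.39, −0.23, and −0.12 at low iron against 0.86, 0.54, and 0.64 at high iron in *sef1*Δ, and −0.18, 0.27, −0.06, and 0.01 against 1.22, 1.03, 1.18, and 1.16 in *aft1*Δ. The double mutant read −1.13, −1.20, −1.05, and −0.38 against 0.90, 0.71, 0.86, and 1.31, and in WT 0.39, −0.08, −0.18, and 0.15 against 0.84, 0.76, 0.53, and 0.82. No low-iron array reached the high-iron arrays of its strain, and replicate 4 of the double mutant at low iron was the highest of its group. The log2 fold change was −0.94 (SE 0.16, adjusted p = 5.57e-05) in *sef1*Δ, −1.14 (SE 0.15, adjusted p = 2.2e-06) in *aft1*Δ, −1.88 (SE 0.15, adjusted p = 1.78e-11) in *sef1*Δ*aft1*Δ, and −0.67 (SE 0.15, adjusted p = 0.0013) in WT by limma. The fall in the double mutant was larger than in WT (difference of the log2 fold changes −1.21, SE 0.21, adjusted p = 5.05e-05 for the interaction in limma).

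*YAT1* encodes an outer mitochondrial carnitine acetyltransferase. It read −1.36, −1.28, −1.05, and −1.30 at low iron against −0.24, −0.49, and −0.79 at high iron in *sef1*Δ, and −1.88, −1.81, −1.37, and −1.22 against −0.77, −0.73, −0.59, and −0.61 in *aft1*Δ. The double mutant read −1.73, −1.49, −1.50, and −1.08 against −0.48, −0.23, −0.25, and −0.76, and in WT 0.02, −0.45, −0.26, and −0.16 against 0.84, 0.79, 0.24, and 0.36. It thus fell with low iron within each strain, with log2 fold changes of −0.74, −0.89, −1.02, and −0.77 in *sef1*Δ, *aft1*Δ, *sef1*Δ*aft1*Δ, and WT, and it also lay lower in each mutant than in WT at both iron levels.

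*PUG1*, whose product moves protoporphyrin and heme across the plasma membrane, was the third. It read −3.97, −3.60, −3.57, and −3.70 at low iron against −2.72, −2.23, and −2.66 at high iron in *sef1*Δ, −2.28, −2.43, −2.24, and −2.33 against −1.59, −1.75, −1.44, and −1.56 in *aft1*Δ, and −3.0, −3.50, −3.41, and −3.07 against −2.71, −2.56, −2.43, and −2.60 in WT. In the double mutant 3 low-iron arrays read −2.61, −2.74, and −2.88 and replicate 4 read −1.35, inside the high-iron values of −1.31, −1.41, −1.42, and −1.10. The log2 fold change was −1.17 (SE 0.21, adjusted p = 0.00016) in *sef1*Δ, −0.73 (SE 0.20, adjusted p = 0.0115) in *aft1*Δ, −1.09 (SE 0.20, adjusted p = 3.87e-05) in *sef1*Δ*aft1*Δ, and −0.67 (SE 0.20, adjusted p = 0.0147) in WT by limma.

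Other members of the respiratory chain list moved only in part. Of its 7 genes, 0 rose and 3 fell in *sef1*Δ, 0 rose and 1 fell in *aft1*Δ, 1 rose and 3 fell in *sef1*Δ*aft1*Δ, and 0 rose and 1 fell in WT, *CCP1* being the only one in *aft1*Δ and WT. Falls took 42.9%, 14.3%, 42.9%, and 14.3% of the list, against 2.33%, 1.94%, 7.38%, and 1.94% of all genes. The 1 rise in *sef1*Δ*aft1*Δ was 14.3% of the list, against 7.49% of all genes. The subunits of the cytochrome bc1 complex *QCR7* and *QCR8* fell by 0.82 and 0.73 in *sef1*Δ cells (SE 0.09 and 0.10, adjusted p = 4.49e-08 and 5.66e-06 in limma). In the double mutant *QCR8* (−0.75) and the internal NADH dehydrogenase *NDI1* (−0.63) fell, and *ACN9*, an assembly factor of succinate dehydrogenase, rose by 0.75. None of the 7 interactions of the *sef1*Δ strain with iron was called, so these data do not show that the *sef1*Δ response of *QCR7* or *QCR8* differs from that of WT (−0.51 and −0.34, not called).

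*MRS3*, a mitochondrial carrier that brings iron into the matrix, was called higher at low iron in *sef1*Δ alone. It read 0.10, 0.30, 0.11, and −0.33 at low iron against −0.69, −0.68, and −0.71 at high iron in *sef1*Δ (log2 fold change 0.74, SE 0.17, adjusted p = 0.00311 in limma). In WT it read −0.35, −0.57, −0.42, and −0.11 against −0.71, −0.74, −0.89, and −0.73, a change of 0.41 without overlap that fell short of 1.5-fold. The interaction of *sef1*Δ with iron was 0.33 and was not called, so that no difference between *sef1*Δ and WT was shown. In *aft1*Δ cells the response minus that of WT was −0.69 (SE 0.23, adjusted p = 0.0458 in limma). *FMP33*, a mitochondrial protein of unknown function, rose by 0.66 in *sef1*Δ (SE 0.09, adjusted p = 5.04e-06 in limma) and by 0.77 in *sef1*Δ*aft1*Δ.

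Genes without a name also changed with iron, at signals near the bottom of the range. SAKL0C00374g rose by 0.74 in *sef1*Δ cells and 0.64 in WT (adjusted p = 0.0241 and 0.0344 in limma), and its calls were lost when single arrays were left out. Its probes differed in size in WT (1.1 and 0.17), and with the second or the brighter probe (0.17) the WT call was lost. SAKL0C00198g fell by 0.99 in *sef1*Δ cells, and its call was lost without replicate 2 of *sef1*Δ at high iron (−0.86). SAKL0C02530g fell by 0.76 in WT (SE 0.17, adjusted p = 0.00131 in limma), where 1 of 4 low-iron arrays was well above background, and the call was lost with normexp (−0.30) and with the methods' t-test.

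In the double mutant, low iron raised genes of other kinds. *ESBP6* encodes a protein similar to the monocarboxylate permeases. It read −1.48, −1.57, −1.18, and −0.43 at low iron against −4.03, −3.89, −3.84, and −4.07 at high iron in *sef1*Δ*aft1*Δ cells, the largest rise in C-left (log2 fold change 2.79, SE 0.14, adjusted p = 1.29e-15 in limma; 2.55 without replicate 4). In *aft1*Δ it read −1.93, −1.98, −1.84, and −1.83 against −2.62, −2.62, −2.54, and −2.64, a rise of 0.71 (SE 0.14, adjusted p = 0.000672 in limma). In *sef1*Δ it read −4.04, −3.83, −4.10, and −4.07 against −4.04, −4.04, and −4.07, and in WT −4.51, −4.43, −4.59, and −4.66 against −4.24, −4.44, −4.18, and −4.45. The *ESBP6* signal was thus highest at low iron in both strains that carry the *aft1* deletion, and at high iron in the *aft1*Δ strain. All 23 mutant arrays lay above all 8 WT arrays, those of *sef1*Δ and of *sef1*Δ*aft1*Δ at high iron by less. A mutant and its slide cannot be told apart in these comparisons with WT.

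*ARG1*, the argininosuccinate synthetase of arginine synthesis, responded to iron in opposite directions. In *sef1*Δ*aft1*Δ cells it read 1.06, 0.40, 1.18, and 1.14 at low iron against −0.07, −0.32, −0.16, and 0.25 at high iron, a rise of 1.02 (SE 0.13, adjusted p = 4.3e-07 in limma). In WT it read −0.95, −1.23, −1.13, and −0.98 against −0.46, −0.41, −0.22, and −0.47, a fall of 0.68 (SE 0.13, adjusted p = 0.000496 in limma). In *sef1*Δ it read −1.51, −1.24, −1.21, and −1.47 against −1.01, −0.94, and −0.93, and in *aft1*Δ 0.06, 0.32, −0.11, and −0.21 against −0.19, −0.22, −0.27, and −0.37. The double mutant and WT differed in their response by 1.70 (SE 0.19, adjusted p = 7.12e-08 in limma), and *aft1*Δ and WT by 0.96 (SE 0.19, adjusted p = 0.000902 in limma).

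The list of 11 genes of amino acid, nucleotide, and vitamin synthesis had 4 genes that rose and 1 that fell with low iron in *sef1*Δ*aft1*Δ. These were 36.4% and 9.09% of the list, against 7.49% and 7.38% of all genes. The list median was 0.37, against −0.049 over all genes. Beside *ARG1*, the histidine enzyme *HIS4* (0.61), the thiamine enzyme *THI20* (0.83), and the biotin synthase *BIO2* (0.65, with overlapping arrays) rose, and the S-adenosylmethionine synthetase *SAM2* fell by 0.62. In *sef1*Δ and *aft1*Δ no member was called, and in WT only *ARG1* was. *OYE3*, an NADPH dehydrogenase, and *ARA1*, an arabinose dehydrogenase that uses NADP, rose by 1.28 and 1.04 in the double mutant (SE 0.16 and 0.08, adjusted p = 1.23e-07 and 4.1e-11 in limma). *FEN1*, a fatty acid elongase, fell by 1.21 (SE 0.11, adjusted p = 5.6e-10), and the cytosolic ribosomal protein genes *RPS22A* and *RPL17A* by 1.01 and 0.63, as 2 of 6 members of their list with a median of −0.43.

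**Figure D4:**
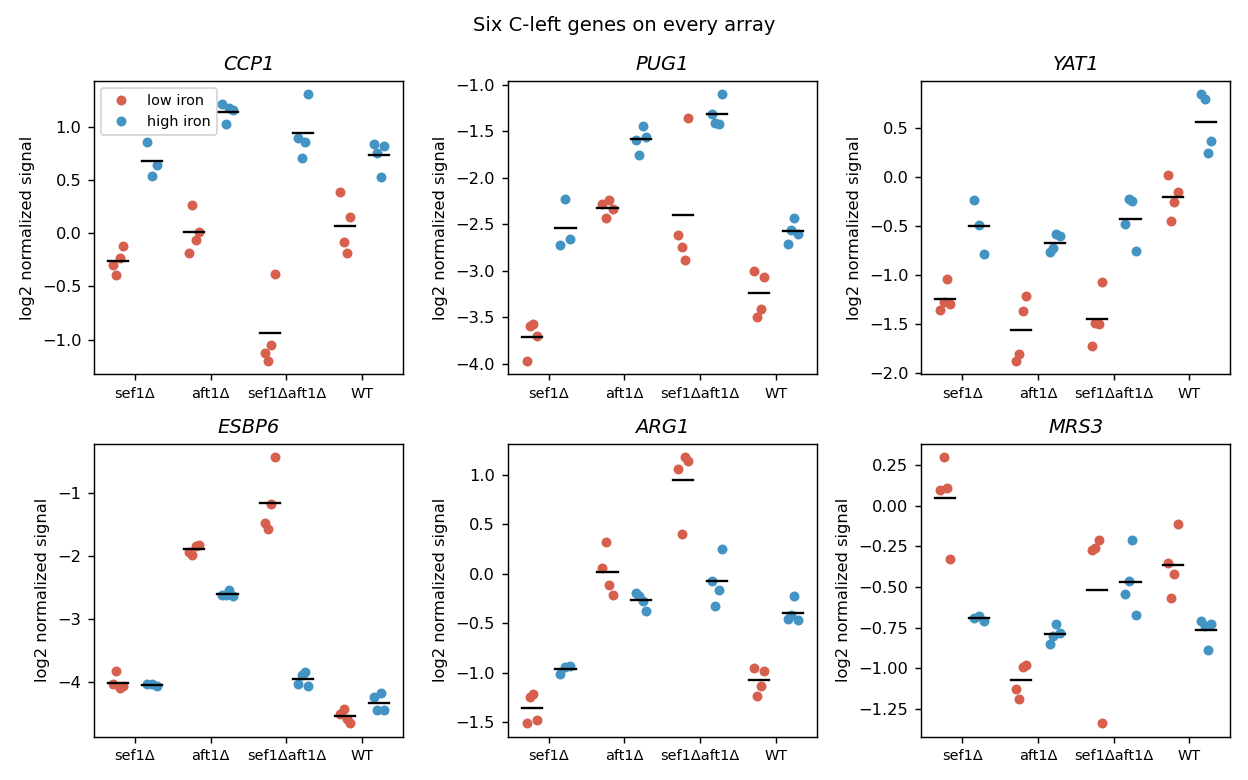
Log2 signal minus the array's 75th percentile (y axis) of 6 C-left genes on each array, by strain (x axis) and iron level (color). Points are arrays and black lines are group means. *CCP1* and *YAT1* lie lower at low iron in every strain with no overlap, *ESBP6* is highest in *sef1*Δ*aft1*Δ and *aft1*Δ at low iron, and for *PUG1* 1 low-iron array of *sef1*Δ*aft1*Δ (−1.35) lies among the high-iron arrays.

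Beneath the shift of C-left as a whole, single genes moved against WT by far more than the median. At low iron 13 C-left genes were called higher and 20 lower in all 3 mutants (3.14% and 4.83%, background over all genes 7.68% and 2.43%), and at high iron 9 and 25 (2.17% and 6.04%, background 7.30% and 1.81%). In all 6 comparisons 7 genes were higher (*CHA1*, *MET2*, *MRPL38*, SAKL0C06006g, *ALB1*, *ASF1*, and *HCH1*) and 13 lower, among them *DAL5*, *AVT2*, *YAT1*, and SAKL0C02156g, or 1.69% and 3.14% against a background of 4.29% and 1.03%. The WT arrays are common to these comparisons, so a gene that reads high on the WT slide is lower in all of them. Over all 31 arrays, the 23 mutant arrays lay above all 8 WT arrays for 15 C-left genes (3.62%) and below them for 54 (13%), against 374 genes (8.73%) and 106 genes (2.47%) of chromosomes B and D to H and 4 genes (3.77%) and 2 genes (1.89%) of C-right. Over all genes these shares were 8.45% and 3.12%.

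*ASF1*, a histone chaperone that assembles nucleosomes, was steady within each strain. It read −0.48, −0.45, −0.46, and −0.44 in *sef1*Δ cells, −0.66, −0.93, −0.99, and −0.80 in *aft1*Δ, and −0.73, −0.67, −0.74, and −0.78 in *sef1*Δ*aft1*Δ at low iron, against −1.69, −1.69, −1.63, and −1.64 in WT. The log2 fold changes were 1.2 (SE 0.07, adjusted p = 3.02e-14 in limma), 0.82, and 0.93. No mutant array overlapped the WT arrays, and high iron gave 0.90, 0.66, and 0.93.

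*MRPL38*, a protein of the large mitochondrial ribosomal subunit, read −2.59, −2.75, −2.62, and −2.92 in *sef1*Δ cells, −2.09, −1.86, −2.13, and −2.16 in *aft1*Δ, and −1.91, −2.04, −1.95, and −2.75 in *sef1*Δ*aft1*Δ at low iron, against −3.67, −3.76, −3.98, and −3.87 in WT. It rose by 1.1, 1.76, and 1.66 (adjusted p = 4.6e-08 for *sef1*Δ in limma). *MRP49*, of the same ribosomal subunit, went the other way with −1.14, −0.87, and −1.27, and these were the only members of the mitochondrial ribosome list (7 genes) called in *sef1*Δ and *sef1*Δ*aft1*Δ. In *aft1*Δ *MRPL10* also rose, by 0.78. Rises took 14.3%, 28.6%, and 14.3% of the list in the 3 mutants, against 13.8%, 25.6%, and 21.4% of all genes. Falls took 14.3% of it in each, against 7.22%, 13.7%, and 8.77% of all genes.

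The largest falls in *sef1*Δ belonged to genes without a name. SAKL0C02156g read −5.60, −5.75, −5.09, and −5.71 in *sef1*Δ cells, −4.27, −4.52, −5.07, and −4.39 in *aft1*Δ, and −3.70, −4.43, −4.64, and −4.27 in *sef1*Δ*aft1*Δ at low iron, against −2.44, −2.71, −3.04, and −2.74 in WT. It was 6.98-fold lower in *sef1*Δ (log2 −2.80, SE 0.19, adjusted p = 1.93e-12 in limma), 3.56-fold lower in *aft1*Δ, and 2.88-fold lower in *sef1*Δ*aft1*Δ, and again lower at high iron (−3.24, −2.05, and −1.46). SAKL0C03960g fell by 1.74 and SAKL0C09086g by 1.69 in *sef1*Δ, and SAKL0C02508g by 1.73 in *aft1*Δ. In the double mutant SAKL0C00110g rose by 2.07 (SE 0.22, adjusted p = 1.87e-09 in limma; 1.80 without replicate 4).

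The ribosome biogenesis list had more rises than falls, unlike C-left as a whole. Of its 11 genes 3 rose and 0 fell in *sef1*Δ, 7 rose and 1 fell in *aft1*Δ, and 5 rose and 0 fell in *sef1*Δ*aft1*Δ at low iron. The shares of rises were 27.3%, 63.6%, and 45.5%, against 6.28%, 11.4%, and 11.8% of all C-left genes and 13.8%, 25.6%, and 21.4% of all genes. The list medians were 0.42, 1.01, and 0.56, against all-gene medians of 0.105, 0.105, and 0.129, and the list medians stayed above 0 under each scaling tried. *ALB1*, which shuttles with pre-60S particles between nucleus and cytoplasm, read −1.80, −1.84, −1.89, and −2.03 in *sef1*Δ cells, −0.33, −0.11, −0.43, and −0.46 in *aft1*Δ, and −1.39, −1.49, −1.42, and −1.97 in *sef1*Δ*aft1*Δ, against −3.24, −2.83, −3.05, and −3.21 in WT. The rise was 1.19, 2.75 (SE 0.12, adjusted p = 1.47e-17 in limma), and 1.52, with no overlap in any mutant. *EBP2*, needed for 25S rRNA maturation, rose by 0.91 in *sef1*Δ cells and 1.59 in *aft1*Δ cells, and its 0.56 in the double mutant was not called. The RNA helicase *DBP10* rose by 1.57 in *aft1*Δ and 1.25 in the double mutant, and *KRR1* by 0.67, 1.15, and 0.65 in the 3 mutants. *LAS1*, an endonuclease of pre-rRNA, fell by 0.73 in *aft1*Δ. The 6 cytosolic ribosomal protein genes had 1, 2, and 0 rises in the 3 mutants, or 16.7%, 33.3%, and 0% of that list.

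All 7 genes of the mating and pheromone response list fell in *aft1*Δ cells at low iron, by 0.62 to 0.91, with a median of −0.69. In this comparison 28.0% of C-left genes and 13.7% of all genes were called lower. They were the cell fusion gene *FUS1*, *FAR1*, which arrests the cycle after pheromone, the transcription factor *KAR4*, the adaptor *STE50*, *HMRA2* of the mating-type loci, the membrane fusion gene *PRM1*, and *STE3*, the receptor of a-factor. With chromosome A left out of the scaling 3 of the 7 were called lower. The list was chosen with earlier results of these data known, so the count is a description only. *FUS1* read −1.12, −1.23, −1.29, and −1.20 in *aft1*Δ, −0.83, −0.95, −0.71, and −0.81 in *sef1*Δ, and −0.82, −0.83, −0.84, and −0.85 in *sef1*Δ*aft1*Δ, against −0.35, −0.34, −0.40, and −0.10 in WT, and at low iron only the *aft1*Δ change of −0.91 was called (SE 0.07, adjusted p = 1.41e-12 in limma). In *sef1*Δ no member was called. In *sef1*Δ*aft1*Δ *PRM1* fell by 0.59 and *STE3* rose by 0.60. At high iron *FUS1* fell in all 3 mutants (by 0.63 in *sef1*Δ cells, 0.85 in *aft1*Δ, and 0.67 in the double mutant), and *FAR1* fell by 0.70 in *aft1*Δ and 0.63 in the double mutant. These 2 of the 7 were the only members called in *aft1*Δ at high iron.

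The 20 transporters and permeases gave 1 rise and 7 falls in *sef1*Δ, 3 rises and 9 falls in *aft1*Δ, and 3 rises and 6 falls in *sef1*Δ*aft1*Δ. Falls thus took 35%, 45%, and 30% of the list, against 10.4%, 28%, and 17.1% of all C-left genes and 7.22%, 13.7%, and 8.77% of all genes, with medians of −0.30, −0.41, and 0.01 (the last was −0.10 under quantile normalization, −0.14 with median scaling, and −0.20 with normexp). *DAL5*, the allantoate permease, fell by 1.63, 1.33, and 1.09 in the 3 mutants, and *AVT2*, a vacuolar amino acid transporter, by 1.12, 1.43, and 1.55. The potassium transporter *TRK1* fell by 0.60, 0.95, and 0.86. The drug pump *PDR15* read 1.56, 1.41, 1.59, and 1.69 in *aft1*Δ and 1.26, 1.83, 1.69, and 1.21 in *sef1*Δ*aft1*Δ, against 3.21, 3.31, 3.18, and 3.07 in WT, and fell by 1.63 and 1.70 (SE 0.11 each, adjusted p = 1.29e-13 and 1.44e-13 in limma), while its value of −0.49 in *sef1*Δ was not called. Both neighboring loci named *CAN1*, for arginine permease, differed in sign: SAKL0C02662g fell by 0.67, 1.44, and 0.72, whereas SAKL0C02640g rose by 0.65 in *sef1*Δ and 1.01 in *sef1*Δ*aft1*Δ and had 0.40 in *aft1*Δ, which was not called. *ESBP6* was the largest rise of the list, with 2.65 in *aft1*Δ (SE 0.14, adjusted p = 3.34e-16) and 3.38 in *sef1*Δ*aft1*Δ (SE 0.14, adjusted p = 2.69e-18) in limma.

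The 7 genes of iron, copper, and heme showed no common direction against WT at low iron. In *sef1*Δ 0 rose and 1 fell, in *aft1*Δ 2 rose and 1 fell, and in *sef1*Δ*aft1*Δ 2 rose and 2 fell. These were 0% and 14.3%, 28.6% and 14.3%, and 28.6% and 28.6% of the list. The shares over all genes were 13.8% and 7.22%, 25.6% and 13.7%, and 21.4% and 8.77%. The metalloreductase *FRE1* rose by 0.96 in *aft1*Δ (SE 0.20, adjusted p = 8.11e-05 in limma), *PUG1* rose by 0.93 in *aft1*Δ and 0.85 in the double mutant, and *MRS3* fell by 0.71 in *aft1*Δ. The falls in *sef1*Δ and the double mutant were those of *BIO2* (−0.66 in *sef1*Δ), whose product is an iron-sulfur enzyme, and *CCP1* (−1.0 in *sef1*Δ*aft1*Δ) together with *ATX1*. The copper chaperone *ATX1* fell by 0.63 and *ROX1*, the repressor of hypoxic genes, rose by 0.60 in *sef1*Δ*aft1*Δ. YJL133C-A (SAKL0C06490g), an uncharacterized neighbor of *MRS3*, read −1.22, −1.16, −1.17, and −0.93 in *aft1*Δ at low iron, against 1.32, 1.18, 0.97, and 0.80 in WT, and was 4.55-fold lower (log2 −2.19, SE 0.22, adjusted p = 5.72e-10 in limma). In *aft1*Δ it also fell with low iron, by 1.03 (SE 0.22, adjusted p = 0.00176 in limma), which differed from WT by −1.12 (adjusted p = 0.0164 in limma).

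The 11 genes of amino acid, nucleotide, and vitamin synthesis gave 1 rise and 1 fall in *sef1*Δ cells, 4 and 2 in *aft1*Δ, and 3 and 1 in the double mutant against WT at low iron. The double mutant's shares of 27.3% and 9.09% lay near the background of 21.4% and 8.77%. The shares were 9.09% and 9.09% in *sef1*Δ (background 13.8% and 7.22%) and 36.4% and 18.2% in *aft1*Δ (background 25.6% and 13.7%). In *sef1*Δ*aft1*Δ cells *ARG1* was 4.05-fold higher than in WT at low iron (log2 2.02, SE 0.13, adjusted p = 2.12e-13 in limma). Its value of 0.32 at high iron in that strain was not called. *MET2*, for methionine synthesis, rose by 0.83, 0.61, and 1.64 in *sef1*Δ, *aft1*Δ, and the double mutant. In *aft1*Δ the falls were the pyrimidine enzyme *URA2* (−0.94) and the phosphoribosyl pyrophosphate synthetase *PRS5* (−0.85), and the median of the list, 0.06, turned to −0.15 with median scaling and −0.04 with normexp.

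DNA replication and cell cycle genes (14 genes) had 1 rise and 1 fall in *sef1*Δ, 1 rise and 4 falls in *aft1*Δ, and 1 rise and 5 falls in *sef1*Δ*aft1*Δ at low iron, with medians of −0.09, −0.43, and −0.48. Their shares of falls, 7.14%, 28.6%, and 35.7%, stood beside 10.4%, 28%, and 17.1% of all C-left genes and 7.22%, 13.7%, and 8.77% of all genes. The rise was *ASF1* in each mutant. The mitotic inhibitor kinase *SWE1* fell by 0.97 and 1.22, the DNA polymerase epsilon subunit *POL2* by 0.79 and 0.85, and *TOF1*, of the replication fork complex, by 0.88 and 0.99 in *aft1*Δ and *sef1*Δ*aft1*Δ. *SLD5*, of the GINS complex, fell by 0.85 in *sef1*Δ and 0.64 in *sef1*Δ*aft1*Δ. The 14 cell wall and glycosylation genes had no rise and 2, 4, and 2 falls in the 3 mutants, and *KRE9*, needed for beta-glucan, fell in each, by 1.14, 1.32, and 0.81. The shares of falls in this list were 14.3%, 28.6%, and 14.3%, near those of all C-left genes.

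**Figure D5:**
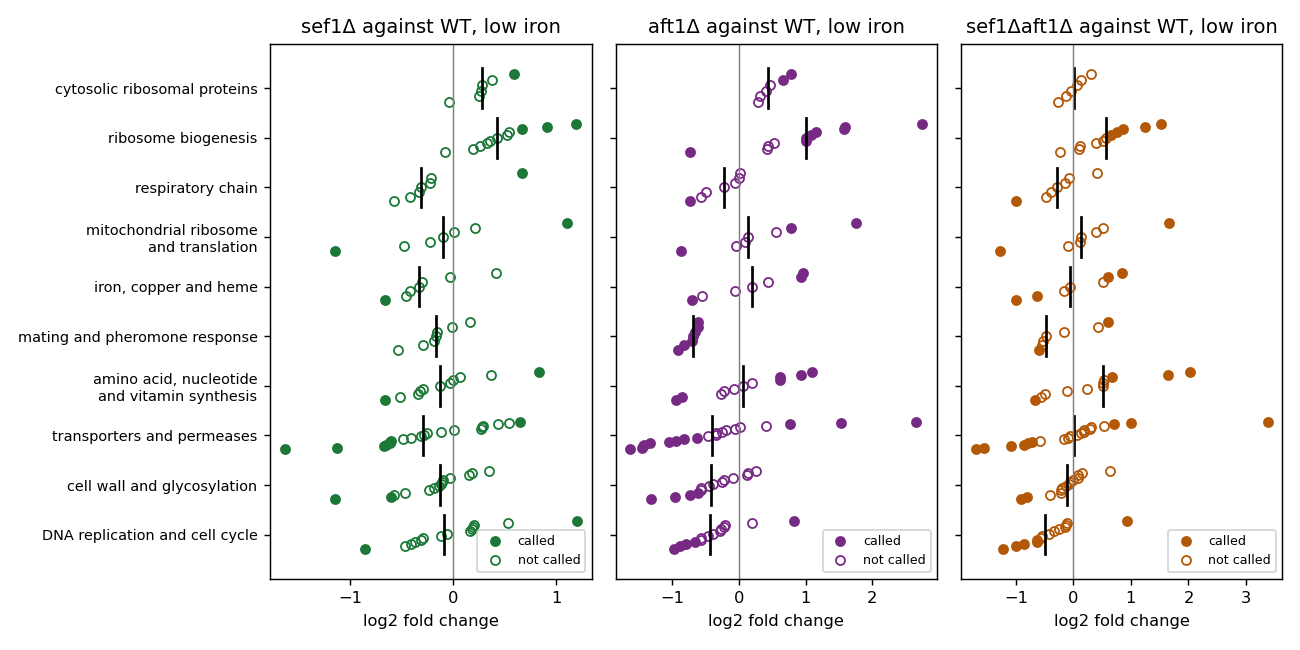
Log2 fold changes (x axis) of the members of 10 gene lists (rows) in each mutant against WT at low iron. Filled points were called, open points were not, and black lines are list medians. The medians of the ribosome biogenesis genes lie to the right of 0 (0.42, 1.01, and 0.56) with single members to the left of it, and all 7 mating genes lie to the left of 0 in *aft1*Δ.

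Some C-left genes have a Sef1 peak assigned to them in the binding data of the study. Those data came from cells grown in YPD or in glycerol medium, not in the low- or high-iron medium. The 188 genes with a peak had medians of −0.07, −0.28, and −0.07 in *sef1*Δ, *aft1*Δ, and the double mutant at low iron, against −0.12, −0.23, and −0.10 for the 226 without. In *sef1*Δ 11 of the bound genes rose and 16 fell (5.85% and 8.51%), against 15 and 27 of the others (6.64% and 11.9%). Over all genes 13.8% rose and 7.22% fell in this comparison. At high iron 4 bound genes rose and 26 fell in *sef1*Δ (2.13% and 13.8%), against 8 and 25 of the others (3.54% and 11.1%). The background there was 11.1% and 5.68%. Both medians at low iron lay below those of chromosomes B and D to H in all 3 mutants.

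Probes of 6 C-left genes can bind more than 1 gene, and the values of those genes are uncertain. Among them *IMA5*, an isomaltase, read 2.05, 1.59, 2.17, and 2.14 in *aft1*Δ at low iron, against −1.43, −1.88, −1.93, and −1.48 in WT (log2 fold change 3.67, SE 0.43, adjusted p = 8.75e-09 in limma). In the double mutant 3 arrays read −3.69, −3.80, and −3.89 and replicate 4 read −1.06. For the related *IMA1* the probes disagreed in *aft1*Δ, with 3.77 and −0.02.

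*MUC1*, a cell surface flocculin, was the only C-left gene not well above background anywhere in a group. It read −9.39, −10.61, and −10.30 in *sef1*Δ at high iron, against −7.78, −7.89, −8.21, and −8.04 in WT, and was at least 1.54-fold lower (adjusted p = 0.000124 in limma for the measured difference of −2.12). For this bound the WT mean was set against the lowest signal that was well above background on each *sef1*Δ array, or the signal of *MUC1* itself where that was higher.

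The responses of the mutants to iron, set against that of WT, cancel any offset that a whole slide carries. For *sef1*Δ 7 C-left genes had a higher and 1 a lower response than WT (background 1.84% and 1.86%, 3.71% in all), for *aft1*Δ 6 and 10 (background 2.37% and 3.86%, 6.23% in all), and for *sef1*Δ*aft1*Δ 28 and 16 (background 6.60% and 7.51%, 14.1% in all). The C-left medians of the interactions were 0.101, −0.010, and 0.052, against −0.014, 0.023, and −0.070 over B and D to H. The count for *sef1*Δ rested on single arrays, and it was 4 without replicate 2 at high iron or replicate 3 or 4 at low iron, 14 without replicate 2 at low iron, and 17 without replicate 1 at low iron. The 7 include *MUC1*, which did not stand well above background in *sef1*Δ at either iron level or in WT at low iron, so that no size is given for it.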

How the data were processed

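Total RNA of the 8 groups was reverse-transcribed, and the cDNA was labeled in 1 color and hybridized to Agilent arrays. The biological repeats of a group are those of the labels. The authors scanned the arrays and analyzed the images with Agilent Feature Extraction 10.5.1.1, per the submitters' processing notes. They deposited the background-subtracted spot intensity and marked which spots were outliers, saturated, or well above background. A deposited log2 table of the authors, normalized to the 75th percentile, served as an alternative. The log2 intensity of each probe was taken, outlier spots (0 to 370 on an array) were left out, the 75th percentile of the array was subtracted, and probes of a gene were averaged. The WT arrays had 31 to 370 of them and the mutant arrays 0 to 55, except for replicate 1 of *sef1*Δ*aft1*Δ at high iron with 192. No spot was saturated. The number of arrays limits the precision.

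Group means were fitted over all 31 arrays in limma 3.58.1 (R 4.3.3) without covariates, and p-values were adjusted by Benjamini-Hochberg over 5315 genes; the gene left out by the rule is not reported here. Thresholds followed the methods of the study (1.5-fold and a Benjamini-Hochberg adjusted p of 0.05). Files were read with Python 3.11.15, pandas 2.3.3, numpy 2.4.6, and the R package data.table (version 1.17.8), and matplotlib 3.10.9 drew the plots. The fit was tested on simulated data.

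The members, the 10 gene lists by role, and the list of genes with a Sef1 peak (from the study's tables, as are the gene names) were chosen with earlier results of these data known. Named by rule were the 3 strongest rises and the 3 strongest falls among called C-left genes whose arrays do not overlap and whose probes have the same sign, for each iron comparison and each mutant against WT at low iron, together with members of the lists, *SEF1* and *AFT1*, and the genes at the bound. The genes named as called in all 6 mutant comparisons, *MUC1*, and the cross-hybridizing *IMA1* were singled out after their values were seen. Alternatives were quantile and median scaling, chromosome A left out of the scaling, normexp (offset 50, on the median signal, since the files hold no mean signal), the log2 table, each probe or the brighter one, outlier spots kept, dim genes left out (under 3 well-above-background arrays in every group), the methods' t-test, only the arrays compared, a replicate block, and each array left out.

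Replicate numbers, which are also the columns of a slide, were checked for pairing, by correlating the deviations of arrays of 1 number from the means of their groups. Between low and high iron all correlations were above 0 in *aft1*Δ (0.14 to 0.294), *sef1*Δ*aft1*Δ (0.292 to 0.534), and WT (0.0681 to 0.478). In *sef1*Δ they ranged from −0.0371 to 0.284. Between *sef1*Δ and WT at high iron they were 0.127 to 0.275, and every other pair of a mutant with WT had values below 0. No test was made of these correlations.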

Additional observations from a re-analysis of the deposited data

Results flagged for a closer look

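Among the genes named by rule, 71 groups of 4 arrays were searched for an array far from the others, and 2 were found, where chance gives about 1 in 20. SAKL0C00110g had an array of WT at low iron at −7.01, below the other 3 (−6.50, −6.50, and −6.48). *ARG1* had an array of *sef1*Δ*aft1*Δ at low iron at 0.40, below 1.06, 1.18, and 1.14.

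The response to iron differed between a mutant and WT in limma for the following genes, where each value is the log2 fold change of the mutant minus that of WT. In *sef1*Δ it was SAKL0C02530g (0.84, adjusted p = 0.0364). The WT response of this gene was not called with normexp (−0.30), and that of SAKL0C00374g was not called with the second probe only (0.17). The values given here for both genes rest in part on these WT responses. In *aft1*Δ the responses of SAKL0C00110g (0.98), *ARG1* (0.96), and *ESBP6* (0.93) were higher, and those of SAKL0C00374g (−1.02), YJL133C-A (−1.12), and *MRS3* (−0.69) were lower, with adjusted p between 0.000902 and 0.0458. In *sef1*Δ*aft1*Δ those of SAKL0C00110g (1.43), *OYE3* (1.02), SAKL0C02530g (1.04), *ARG1* (1.70), *ESBP6* (3.01), and *ARA1* (1.07) were higher, and those of SAKL0C00374g (−0.94), *FEN1* (−0.63), *CCP1* (−1.21), and YJL133C-A (−0.87) were lower, with adjusted p between 8.49e-13 and 0.0345.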

How the results depend on the processing

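The direction of the C-left medians against WT and of every gene named by rule was the same under each alternative run. The number of C-left genes called for iron in WT was 4 with normexp, 5 with the second probe only, and 5 with the methods' t-test after Benjamini-Hochberg, against 8, and that of the *sef1*Δ interaction was 4 with the second probe only and 3 with the brighter probe, against 8. The C-left median of the iron comparison in *sef1*Δ*aft1*Δ was −0.024 with the brighter probe, against 0.002. With median scaling the medians of *sef1*Δ, *aft1*Δ, and the double mutant were −0.222, −0.463, and −0.229 at low iron, against −0.113, −0.258, and −0.083, and −0.334, −0.442, and −0.356 at high iron, against −0.205, −0.245, and −0.175. Quantile normalization gave −0.175, −0.394, and −0.185 at low iron, and −0.354 for *aft1*Δ and −0.296 for *sef1*Δ*aft1*Δ at high iron. The brighter probe gave −0.312 for *aft1*Δ and −0.146 for *sef1*Δ*aft1*Δ at low iron and −0.297 for *aft1*Δ at high iron, and chromosome A left out of the scaling gave −0.145 and −0.143 for *aft1*Δ at low and high iron. With the first probe only *sef1*Δ and *sef1*Δ*aft1*Δ had −0.156 and −0.141 at high iron, and with the second probe only *sef1*Δ*aft1*Δ had −0.216. The C-left median minus that of chromosomes B and D to H, an alternative set chosen after seeing the data, was nearest to 0 for *sef1*Δ at low iron with the brighter probe (−0.142). WT and mutant arrays did not overlap in their C-left offset except with the first probe only, where the highest mutant array had 0.62 and the lowest WT array 0.61. The cause of these changes was not tested.

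Leaving out 1 array at a time gave 6 to 13 calls for iron in *aft1*Δ, against 11 (6 without replicate 1 at low iron and 7 without replicate 4 at high iron), and 4 to 17 for the *sef1*Δ interaction, against 8. The calls of SAKL0C00374g for iron were lost without single arrays in *sef1*Δ (0.66 to 0.77, without replicate 2, 3, or 4 at low iron or 1 or 2 at high iron) and in WT (0.38 to 0.66, without replicate 1 or 3 at low iron or 1, 3, or 4 at high iron), with quantile normalization (0.61 and 0.60), with the second or the brighter probe (0.56 and 0.17), and with the methods' t-test. The call of SAKL0C00110g in *aft1*Δ was lost without any one of 6 arrays (0.60 to 0.71) and with normexp (0.58), those of SAKL0C02530g in WT and SAKL0C00198g in *sef1*Δ with normexp (−0.30 and −0.37, the first also with the methods' t-test), and that of *FMP33* in *sef1*Δ with the first probe only (0.58). Split by direction, the 8 iron calls of WT were 0 higher and 7 lower with quantile normalization, 2 and 6 with the authors' log2 table, and 1 and 3 with normexp, the 14 of *sef1*Δ were 6 and 7 with quantile normalization, and the 8 of the *sef1*Δ interaction were 7 and 0. The methods' t-test called 17, 11, 48, and 8 genes for iron in *sef1*Δ, *aft1*Δ, the double mutant, and WT without adjustment and 14, 9, 43, and 5 after Benjamini-Hochberg. A fit with the replicate number as a block gave 16, 11, 53, and 8 calls for iron in *sef1*Δ, *aft1*Δ, the double mutant, and WT, 69, 163, and 120 for the mutants at low iron, 61, 126, and 100 at high iron, and 10, 17, and 48 for the interactions, and among named genes the block ended only the call of SAKL0C00374g in *sef1*Δ (0.66). Signals near background, as for *MUC1*, give bounds only.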
